A study of Mus musculus with 36 samples.

Results

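The miR-296 and miR-298 cluster is a pair of neighbouring microRNA (miRNA) hairpins, Mir296 and Mir298, at the imprinted Gnas locus of mouse chromosome 2. Its members were chosen by name and comprise both mature arms of both hairpins, mmu-miR-296-5p, mmu-miR-296-3p, mmu-miR-298-5p and mmu-miR-298-3p (mmu for mouse, left out below), 4 of the 1966 mature miRNA names counted. The cluster was picked because the levels of the hairpins, and the difference between them, were seen to vary over the 10 groups of these same data. Levels, ratios of the hairpins and fold changes of the members are therefore given as descriptions, and no test is read from them.

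Small RNA was sequenced from total RNA of FACS-sorted CD4+ TCRb+ T cells of C57BL/6J mouse spleen, in 36 libraries from 2 experiments. The first experiment held 22 libraries of WT cells and of AGO134-/- cells, which lack Argonaute 1, 3 and 4. WT and AGO134-/- cells were sampled uncultured (naive, nT; 4 and 4 libraries), after 7 days of Th2 culture (TH2-7d; 4 and 4) and after 14 days (TH2-14d; 3 and 3). The second held 14 libraries of CD4Cre;R26LSLeYFP control cells and CD4Cre;R26LSLeYFP;AGO2f/f cells, which lose Argonaute 2, sampled naive (3 and 4) and after 5 days of Th2 culture (3 and 4). The controls of the second experiment carry the same CD4-Cre transgene and eYFP reporter as the knockouts, and the deletion is limited to cells that have expressed CD4. The sample labels give 5 days where the series text gives day 7, and the days of the labels are used here. Small RNA libraries do not measure Argonaute mRNAs, and the genotypes are taken as labelled. Whether replicates came from separate animals is not stated, so every spread and p is that between these libraries, which may be technical.

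A miRNA hairpin is cut from a longer primary transcript, and its stem yields a 5p and a 3p strand, of which one is usually kept by an Argonaute protein while the other is lost. Bases 2 to 8 of the kept strand, the seed, pair with target mRNAs. Mir296 and Mir298 lie in tandem on the strand of Nespas, the antisense transcript of Gnas, and belong to an imprinted cluster, in which one parental allele is expressed. The libraries carry no allele information, so imprinting itself was not measured. miR-296 is known from work on endothelial growth and on stem cell pluripotency, and miR-298 from work on the Bace1 mRNA in neurons.

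The mature sequences are shown so that the arms can be told apart, from RefSeq on GRCm38.p6, 5′ to 3′, with the seed in capitals. Mir296 yields these strands.
miR-296-5p: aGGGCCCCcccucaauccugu
miR-296-3p: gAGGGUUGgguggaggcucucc
Mir298 yields these strands.
miR-298-5p: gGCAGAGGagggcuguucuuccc
miR-298-3p: gAGGAACUagccuucucucagcuu

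The 4 seeds all differ, so neighbours in the genome are not members of 1 seed family here. On the minus strand of chromosome 2, miR-296-5p spans chr2:174267093-174267113, miR-296-3p chr2:174267058-174267079, miR-298-5p chr2:174267553-174267575 and miR-298-3p chr2:174267512-174267535. The whole hairpins, at chr2:174267047-174267125 and chr2:174267504-174267585, are given next with both mature arms in capitals, to show where each arm sits in its stem.
Mir296: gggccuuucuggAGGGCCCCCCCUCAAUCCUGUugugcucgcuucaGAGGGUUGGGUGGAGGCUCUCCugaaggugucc
Mir298: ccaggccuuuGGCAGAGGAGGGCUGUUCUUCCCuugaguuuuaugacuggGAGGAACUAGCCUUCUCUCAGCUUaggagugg

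The hairpins are 79 and 82 bases long, lie 378 bases apart, and no other gene of the GENCODE M21 annotation overlaps the interval from one to the other. The annotated Nespas transcript, on the same strand, ends 13651 bases upstream of Mir298. Predicted folding energies were close, -43.2 kcal/mol for Mir296 and -42.7 kcal/mol for Mir298. The arms that carried nearly all reads were the more fully paired ones of each stem: 2 bases of miR-296-3p were unpaired against 3 of miR-296-5p, and 1 base of miR-298-5p against 4 of miR-298-3p. GC content was 66.7% for miR-296-5p, 68.2% for miR-296-3p and 65.2% for miR-298-5p, above the upper quartile (60.0%) of the 1675 mature names that matched the sequence table, whereas miR-298-3p lay below their median of 52.2%. Both 3p arms and miR-298-5p begin with G, a first base found in 12.8% of the matched names. Among all matched mouse miRNAs the only one to share bases 2 to 7 with a member was miR-5621-3p, a partial relative of miR-296-5p with 3 counts in all libraries together.

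Depth was 64264 to 273724 miRNA counts among libraries of the first experiment but 596 to 58357 among those of the second, and AGO134-/- libraries were shallower on average than WT (143644 against 223239 counts in naive cells). Levels are in CPM, counts per 1000000 miRNA counts, which scales by library size alone. Where levels of members are said to overlap or not, CPM is meant, and the share of all miRNAs without overlap is not given. A count of 0 allows up to 3 counts, which is 11.0 to 46.7 CPM for a library of the first experiment and 51.4 to 5034 CPM for one of the second. This limit and the exact 95% intervals below cover counting error only. All 5 miRNAs listed as CD4 T cell markers had counts in every group, together 3.78% to 13.9% of a first-experiment library and 2.47% to 9.41% of a second-experiment one. Of 18 markers of other cell types, between 4 and 16 had a count in a group, and they summed to 1209 to 3207 CPM (first experiment) or 153.6 to 1678 CPM (second). The myeloid marker miR-223-3p was at 0 in both groups at day 7 and in the whole second experiment, and the red cell marker miR-451a was at 0 in all groups but WT naive. The red cell and platelet list of 3 markers that holds miR-451a still averaged 97.0 to 469 CPM in first-experiment groups and 0 to 19.1 CPM in second-experiment ones. One doubtful entry, miR-5099, took 0.836% to 1.87% of a first-experiment library and 9.85% to 65.8% of a second-experiment one. Calls here are miRNAs with a Benjamini-Hochberg adjusted p under 0.05 in edgeR's quasi-likelihood test over all miRNAs that passed the count filter in an experiment (98 in the second). The balance of calls depends on scaling: in the AGO134-/- comparisons, 31 higher and 39 lower in naive cells became 8 and 80 with library size alone and 0 and 204 when scaled to the STD entries, 33 and 22 at day 7 became 4 and 43 or 1 and 128, and 34 and 41 at day 14 became 22 and 54 or 2 and 72. For AGO2 at day 5, 19 higher and 25 lower became 13 and 29 or 4 and 65.

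The most counted member was miR-298-5p, with 4085 counts over the 36 libraries, followed by miR-296-3p with 3558 and miR-296-5p with 432. miR-298-3p had 8 counts, spread over 5 libraries, and passed no count filter. The cluster was therefore read mainly through 1 arm of each hairpin, the 3p arm of miR-296 (89.2% of its reads, 88.2 to 90.1) and the 5p arm of miR-298 (99.8% of its reads, 99.6 to 99.9). In WT cells at day 14, miR-298-5p ranked 93 and miR-296-3p 125 by mean level among the 927 miRNAs with a count.

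The first question was how the cluster behaves when WT cells leave the naive state. miR-296-3p stood at 418, 306, 385 and 372 CPM in the WT naive libraries and at 818, 1133, 940 and 1074 CPM at day 7. miR-298-5p stood at 304, 238, 197 and 173 CPM in WT naive cells and at 1761, 1647, 1265 and 1443 CPM at day 7. Every day 7 library lay above every naive library for both arms. With library size alone, as in CPM, the median log2 fold change of all tested miRNAs over this step was 0.29. Marker lists moved over the same step: the T cell markers took 10.1% to 10.6% of counts in WT naive libraries and 5.34% to 5.76% at day 7. Higher at day 7 were the endothelial pair (186 and 968 CPM on average), the liver marker miR-122-5p (265 and 838), the stromal pair (98.8 and 164) and the neural and endocrine markers (60.1 and 191). Lower were the 3 epithelial markers (1535 and 669 CPM), the red cell and platelet markers (469 and 102), the muscle markers (57.5 and 6.28) and miR-223-3p (29.8 and 0). Summed, the markers of other cell types overlapped (2327 to 3060 CPM and 2685 to 3207 CPM). The part of these markers in the result was not tested. The rarer arm miR-296-5p averaged 10.7 ± 7.97 CPM in naive cells (SD, n = 4; 10 counts in all) and 189 ± 67.2 CPM at day 7 (SD, n = 4). edgeR's log2 fold changes from naive to day 7 were 1.24 (SE 0.18) for miR-296-3p, 2.57 (SE 0.22) for miR-298-5p and 3.85 (SE 0.38) for miR-296-5p. All 3 were among the calls, where 39.5% of all tested miRNAs were called higher. The neighbours thus rose by unequal amounts: miR-298 supplied 37.6% of the cluster's reads in WT naive cells (206 of 548, 33.5 to 41.8) and 56.0% at day 7 (1553 of 2772, 54.2 to 57.9).

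Between day 7 and day 14 the arms of WT cells did not move together. Other-cell markers shifted without overlap over this step, from 2685 to 3207 CPM at day 7 to 1231 to 1430 CPM at day 14, and their part was not tested. miR-298-5p stood at 1347, 1380 and 1953 CPM at day 14, overlapping its day 7 range, with a log2 fold change of 0.17 (SE 0.21). miR-296-3p stood at 713, 723 and 893 CPM, also overlapping day 7, with a log2 fold change of -0.21 (SE 0.18). miR-296-5p was at 71.5 ± 8.44 CPM (SD, n = 3), with every library below all of day 7, and its log2 fold change of -1.26 (SE 0.28) was among the calls, where 24.9% of miRNAs were called lower. The share of miR-298 reached 64.8% (1223 of 1887, 62.6 to 67.0).

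**Figure D1:**
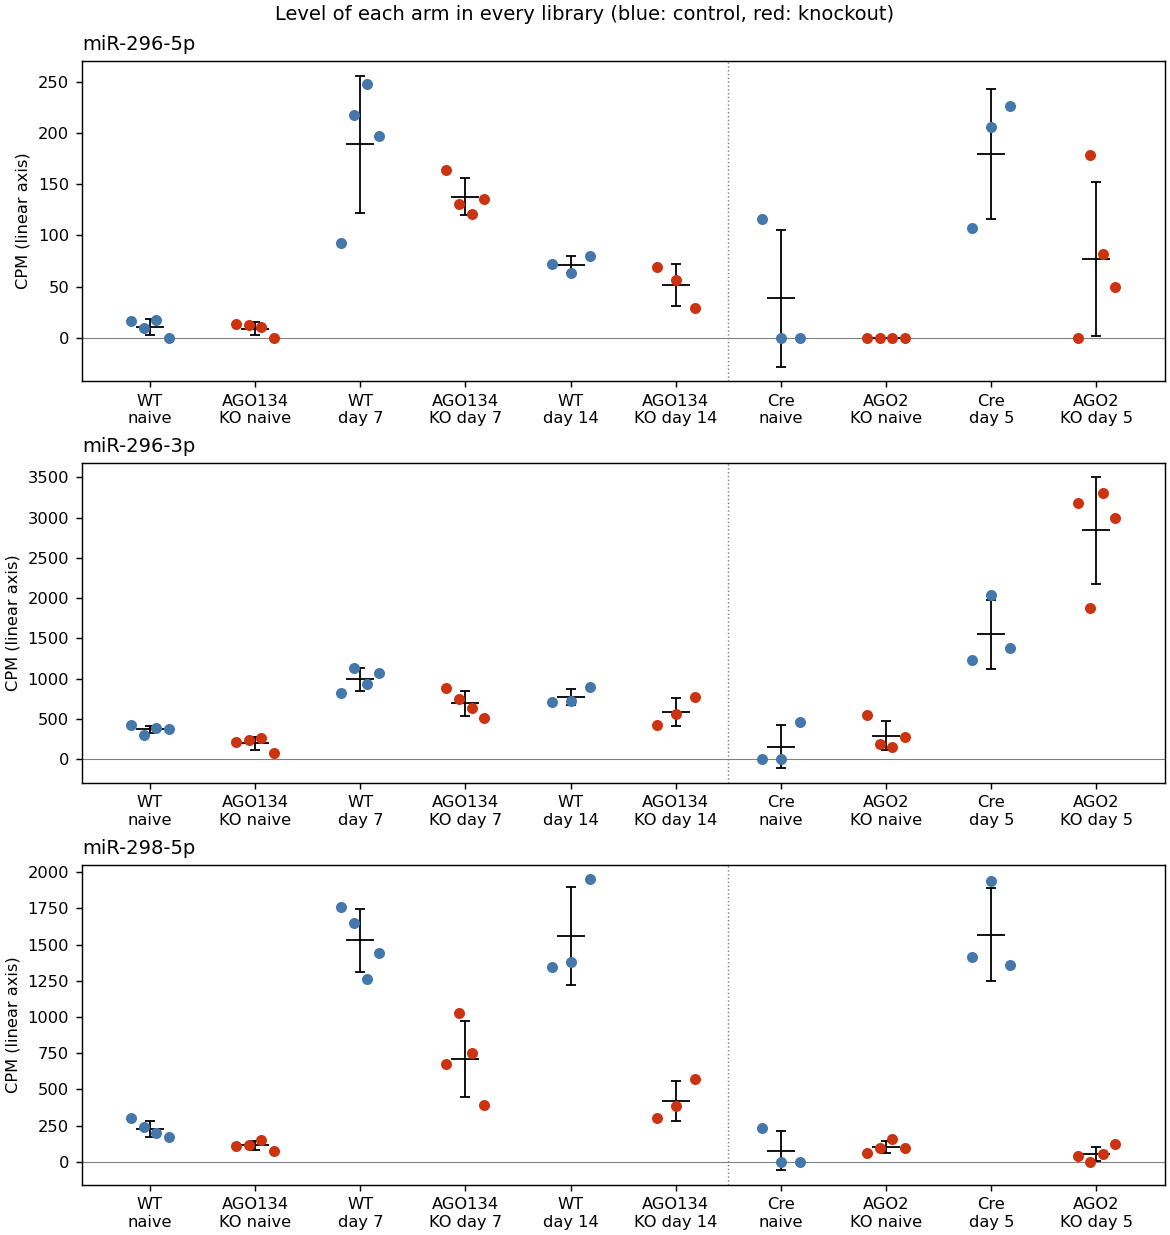
Level of miR-296-5p, miR-296-3p and miR-298-5p (CPM, linear axes) in each library of the 10 groups, with blue points for controls, red points for knockouts, and black bars for the mean and SD. At day 14 the WT libraries of miR-298-5p sit between 1347 and 1953 CPM and the AGO134-/- libraries between 301 and 570 CPM, while those of miR-296-3p overlap.

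The next question was what loss of Argonaute 1, 3 and 4 does to each hairpin. In naive cells both main arms were lower in AGO134-/- libraries. miR-296-3p stood at 209, 240, 261 and 77.8 CPM against 306 to 418 CPM in WT, and miR-298-5p at 108, 114, 153.8 and 77.8 CPM against 173 to 304 CPM, so neither pair of groups overlapped. Lower CPM was common in these libraries: with library size alone the median log2 fold change of all tested miRNAs was -0.33. The log2 fold changes were -0.52 (SE 0.21) for miR-296-3p and -0.65 (SE 0.29) for miR-298-5p, and 0.16 (SE 0.76) for miR-296-5p, which turned to -0.10 with library size as the only scaling. None of the 3 tested members was called, where 10.2% of miRNAs were called lower. Both main arms did pass with library size alone (-0.80 for miR-296-3p and -0.94 for miR-298-5p), with the 2 groups fitted alone (-0.56 and -0.70) and with a replicate block (-0.56 and -0.71). The ratio of the hairpins differed by less than the spread between libraries: the mean log2 ratio of miR-296 to miR-298 reads was 0.76 ± 0.35 in WT and 0.74 ± 0.51 in AGO134-/- cells (SD, n = 4 each). One AGO134-/- library, replicate 4, held only 10 reads of the cluster. The T cell markers took 10.1% to 10.6% of counts in WT naive libraries and 11.5% to 13.9% in AGO134-/- ones, without overlap, while the markers of other cell types overlapped (2327 to 3060 CPM and 1478 to 3113 CPM). The part of the T cell marker shift in these values was not tested.

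At day 7 the log2 ratio of miR-296 to miR-298 reads was higher by 0.67 in AGO134-/- than in WT cells, against -0.02 in naive cells. This change between stages was not tested. The genotype effect at day 7 minus that in naive cells was not called for miR-298-5p (-0.15) or miR-296-3p (0.31). miR-298-5p stood at 672.6, 1026, 749 and 389 CPM in AGO134-/- cells, all below the lowest WT library (1265 CPM). miR-296-3p stood at 880, 744, 633 and 517 CPM, and only the highest of these lay within the WT range of 818 to 1133 CPM. The log2 fold changes were -0.80 (SE 0.20) for miR-298-5p, -0.21 (SE 0.17) for miR-296-3p and -0.17 (SE 0.25) for miR-296-5p. Of the 3 tested members miR-298-5p alone was called, where 5.76% of miRNAs were called lower, but on the STD scaling all 3 were called, at -1.38, -0.82 and -0.79. Markers of other cell types moved with genotype here: 14 of 18 had a count in WT and 12 in AGO134-/- cells, and they summed to 2685 to 3207 CPM and 1899 to 2555 CPM, without overlap. Among them the liver marker miR-122-5p averaged 838 and 579 CPM, the endothelial pair 968 and 729 CPM, the stromal pair 164 and 84.2 CPM, and the neural and endocrine markers 191 and 95.7 CPM. The epithelial markers averaged 669 and 650 CPM, the red cell and platelet markers 102 and 97.0 CPM, and the muscle markers 6.28 and 2.63 CPM. Single markers at 0 in both genotypes were miR-223-3p, miR-451a and miR-133a-3p. The T cell markers overlapped (5.34% to 5.76% and 4.95% to 5.79% of counts). The part of these marker shifts in the result was not tested. The log2 ratio of the hairpins was -0.38 ± 0.39 in WT and 0.29 ± 0.47 in AGO134-/- cells (SD, n = 4 each), and 3 of the 4 AGO134-/- libraries lay above every WT library.

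At day 14 the hairpins separated in every library. miR-298-5p stood at 301, 382.4 and 570 CPM in AGO134-/- cells against 1347, 1380 and 1953 CPM in WT, with a wide gap between the groups. miR-296-3p stood at 422, 557 and 776 CPM against 713, 723 and 893 CPM, and the groups overlapped. The log2 fold changes were -1.74 (SE 0.24) for miR-298-5p, a 3.35-fold lower level, -0.25 (SE 0.20) for miR-296-3p and -0.34 (SE 0.38) for miR-296-5p, whose sign was not stable (0.02 with a replicate block). miR-298-5p was again the only one of 3 tested members to be called, where 10.7% of miRNAs were called lower, and it had the 13th lowest fold change of all tested. The log2 ratio of the hairpins was -0.87 ± 0.12 in WT and 0.62 ± 0.12 in AGO134-/- cells (SD, n = 3 each), a difference of 1.49 with no overlap. miR-298 supplied 64.8% of the cluster's reads in WT and 39.9% in AGO134-/- cells (270 of 677, 36.2 to 43.7). Markers of other cell types summed to 1231 to 1430 CPM in WT and 1209 to 1539 CPM in AGO134-/- libraries at day 14, and the T cell markers to 3.98% to 4.25% and 3.78% to 4.29%. In these bulk samples, fewer cells that make a miRNA and less of it per cell cannot be told apart.

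**Figure D2:**
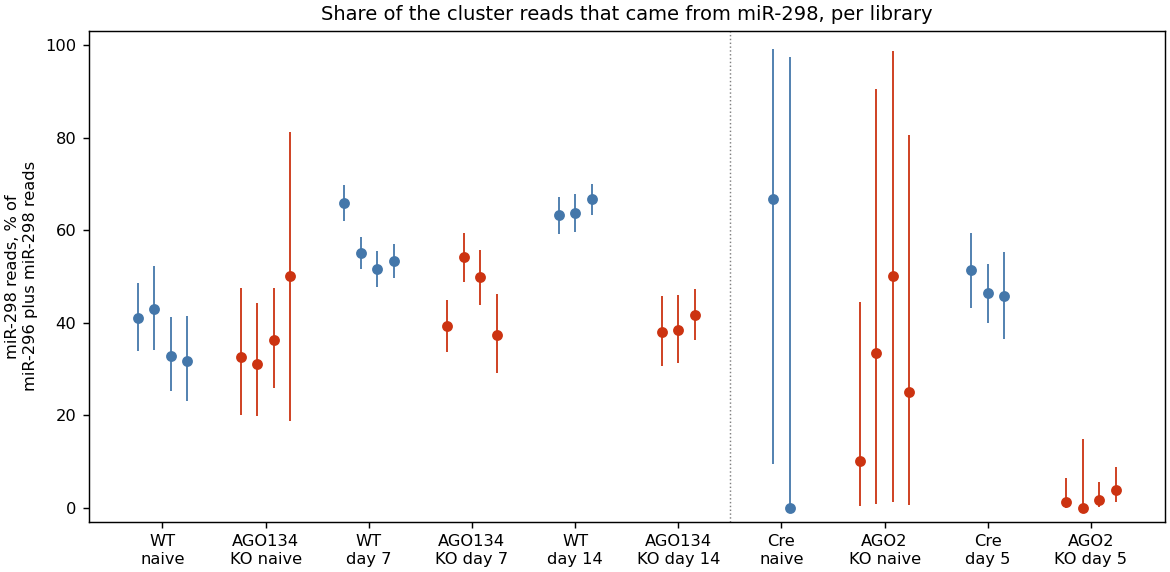
Share of the cluster's reads that came from miR-298 (percent of miR-296 plus miR-298 reads) in each library, with exact 95% intervals as vertical lines, blue for controls and red for knockouts, and 1 naive control library of the second experiment without any read of the cluster left out. In AGO134-/- cells the share is 37.4% to 54.1% at day 7 and 38.0% to 41.6% at day 14, where WT libraries lie between 63.3% and 66.8%, and it is at most 3.88% in AGO2-deficient cells at day 5.

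Time in culture within AGO134-/- cells gave the same values from another side. From naive to day 7, miR-296-3p, miR-298-5p and miR-296-5p had log2 fold changes of 1.55 (SE 0.21), 2.42 (SE 0.27) and 3.52 (SE 0.48), all 3 among the calls, where 39.8% of miRNAs were called higher. The share of miR-298 in the cluster's reads was 34.5% in naive AGO134-/- cells (70 of 203, 28.0 to 41.5), 46.7% at day 7 (511 of 1094, 43.7 to 49.7) and 39.9% at day 14. From day 7 to day 14, miR-298-5p had a log2 fold change of -0.77 (SE 0.24), where in WT it had been 0.17. miR-296-5p had -1.43 (SE 0.34) and miR-296-3p -0.25 (SE 0.19). miR-298-5p and miR-296-5p were called, where 23.3% of miRNAs were called lower. The call of miR-298-5p was lost without AGO134-/- replicate 2 of day 7 (-0.54) or of day 14 (-0.55), with a replicate block (-0.70) and on the STD scaling (-0.80). These comparisons share libraries with the genotype comparisons above and are not separate evidence.

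The change of the genotype effect between stages was taken from an interaction term in the same fit. For miR-298-5p the effect at day 14 minus that at day 7 was -0.94 (SE 0.32), which was among the calls, where 12.0% of miRNAs were called in either direction. Day 14 minus naive was -1.09 (SE 0.39), not called where 6.81% of miRNAs were, and day 7 minus naive was -0.15 (SE 0.36), not called where 2.36% were. With library size alone or with scaling to the STD entries, the first of these was -0.80 under either and no longer called. For miR-296-3p the day 14 to day 7 term was -0.04 (SE 0.26), and its sign turned with those scalings (0.10 and 0.12).

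Loss of Argonaute 2 was examined at day 5 of Th2 culture, and there the hairpins moved in opposite directions on the main scaling. miR-298-5p stood at 1416, 1936 and 1357 CPM in the Cre control libraries and at 38.4, 0, 54.3 and 123 CPM in the AGO2-deficient libraries, from 79, 113 and 54 counts against 1, 0, 2 and 5. miR-296-3p stood at 1237, 2039 and 1382 CPM in the controls and at 3187, 1872, 3312 and 2996 CPM in the AGO2-deficient libraries. So miR-298-5p was far below every control in all 4 AGO2-deficient libraries, while 3 of the 4 held more miR-296-3p than any control. Over the pooled reads, the share of miR-298-5p was 22.9-fold higher in controls (246 of 153946 counts against 8 of 114816; interval 11.5 to 53.7), and that of miR-296-3p was 1.92-fold higher in AGO2-deficient cells (1.63 to 2.27).

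edgeR's log2 fold changes were -4.23 (SE 0.44) for miR-298-5p, the lowest of the 98 miRNAs tested, and 1.18 (SE 0.27) for miR-296-3p. Both tested members were called, where 25.5% of miRNAs were called lower and 19.4% higher. The direction of miR-296-3p rests on the scaling, since it became -0.59 on the STD scaling, which moved the median of all miRNAs from 0.06 to -1.59. Its call was also lost without Cre control replicate A (0.72) and with no filter on low counts (0.90). miR-5099 took 9.85% to 13.5% of counts in the control libraries and 11.8% to 52.3% in the AGO2-deficient ones, and with it left out, an alternative chosen after seeing the data, the values were -4.17 and 1.23. Markers of other cell types summed to 179 to 343 CPM in control and 153.6 to 489 CPM in AGO2-deficient libraries, and the part of all these shares in the result was not tested further. miR-296-5p did not pass the count filter. It had 27 counts in the controls and 7 in the AGO2-deficient libraries, a 2.88-fold higher share of the pooled reads in controls (1.22 to 7.82, counting error only). By library the groups overlapped, at 108, 206 and 226 CPM in controls and 0, 178, 81.4 and 49.1 CPM in AGO2-deficient ones.

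The ratio within a library needs no scaling and showed the same separation. The log2 ratio of miR-296 to miR-298 reads was 0.13 ± 0.18 in the controls (SD, n = 3) and 5.38 ± 0.59 in the AGO2-deficient libraries (SD, n = 4), with no overlap and a difference of 5.25. miR-298 supplied 47.7% of the cluster's reads in the controls (246 of 516, 43.3 to 52.1) and 2.20% in the AGO2-deficient cells (8 of 363, 0.956 to 4.30).

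**Figure D3:**
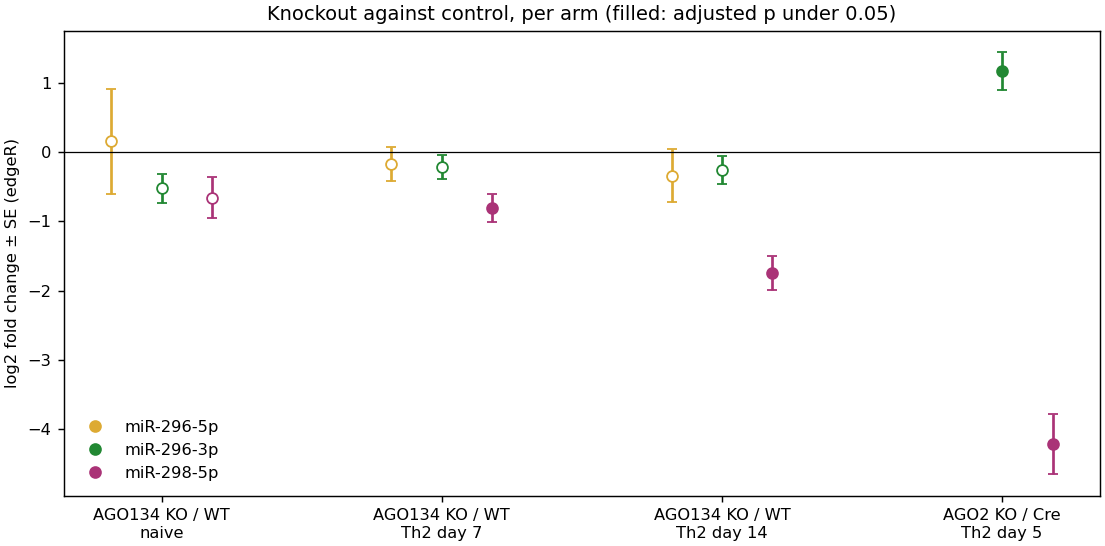
Log2 fold change of knockout against control (edgeR, vertical axis; bars are ± SE) for miR-296-5p, miR-296-3p and miR-298-5p in the 4 genotype comparisons, filled where the miRNA was among the calls. miR-298-5p lies lowest in each, from -0.65 in naive AGO134-/- cells to -4.23 in AGO2-deficient cells at day 5, while miR-296-3p lies at 1.18 in the last, which turns to -0.59 on the STD scaling.

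Naive cells of the second experiment were too shallow to place the cluster. The 3 control libraries together held 1 count of miR-296-5p, 1 of miR-296-3p and 2 of miR-298-5p, and the 4 AGO2-deficient libraries 0, 15 and 4. No fold between these naive groups is given, and a difference between them was not detectable at this depth. Set against the naive AGO2-deficient libraries, the share of miR-296-3p at day 5 was 8.94-fold higher (5.35 to 16.1), while that of miR-298-5p was not distinguishable between naive and day 5 (ratio of naive to day 5, 1.30, interval 0.286 to 4.84). These are shares of all miRNA counts, of which miR-5099 took 48.0% to 65.8% in the naive and 11.8% to 52.3% in the day 5 AGO2-deficient libraries. A larger miR-5099 share lowers all other shares, and its part was not tested. edgeR's fold for miR-296-3p was 6.68. The interaction of genotype and stage for miR-298-5p was -3.66 (SE 1.25), not called where 12.2% of miRNAs were, but it was called with DESeq2 size factors (-3.92) and on the STD scaling (-5.16). It rests on the 2 and 4 naive counts above and is not read further.

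Side by side, the genotype effect on miR-298-5p was -0.80 (SE 0.20) for Argonaute 1, 3 and 4 at day 7 and -4.23 (SE 0.44) for Argonaute 2 at day 5. The days, the controls and the depth differ between the experiments, and the difference between these effects was not tested.

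The arms within a hairpin were not used to choose the cluster, so their ratio was tested over libraries. The 5p share of miR-296 reads was 2.92% in WT and 4.51% in AGO134-/- naive cells, 16.2% and 16.3% at day 7, and 8.43% and 7.86% at day 14. In both genotypes it was highest at day 7, and the genotypes lay close at each stage. The genotype difference in the log2 ratio of 5p to 3p reads was 0.17 at day 7 (exact permutation p = 0.6, adjusted 0.75; smallest possible 0.0286) and -0.07 at day 14 (exact permutation p = 1.0; smallest possible 0.1), and both signs turned when single libraries were left out. In the second experiment at day 5 the 5p share was 10% in controls (27 of 270) and 1.97% in AGO2-deficient cells (7 of 355). The difference in the log2 ratio was -2.23 (two-sided exact permutation p = 0.171, adjusted 0.429). With 3 and 4 libraries this two-sided test cannot go under 0.05, so it does not decide whether the arm ratio changed. For miR-298 the difference was -0.87 at day 7 (exact permutation p = 0.314, adjusted 0.524) and -2.24 at day 14 (exact permutation p = 0.1, the smallest possible, adjusted 0.429). With 1 to 5 reads of the 3p arm per group, though, this ratio mostly follows the depth of the 5p arm. These 5 two-sided tests made up the family, and the other 5 comparisons had a library with fewer than 10 reads of the hairpin and were left untested.

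Other neighbouring hairpins show how far the members of a pair usually part. Among pairs on 1 strand within 10 kb, each hairpin with a mean of at least 10 counts per library, the median size of the genotype change in the log2 ratio was 0.46 over 22 pairs in naive cells, 0.20 over 24 pairs at day 7, 0.35 over 24 pairs at day 14 and 1.0 over 13 pairs for AGO2 at day 5. Mir296 and Mir298 ranked 20 in naive cells, with a size of 0.02. They ranked 1 at day 7 (0.67, with Mir191 and Mir425 next at 0.60), at day 14 (1.49, with Mir19a and Mir20a next at 1.12) and for AGO2 at day 5 (5.25, with Mirlet7e and Mir125a next at 2.21). This ranking describes the contrast by which the cluster was chosen and is no test of it. With a minimum of 50 counts the pair still ranked 1 at day 7 and day 14, over 21 and 19 pairs, and held too few counts for a value in the other comparisons.

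**Figure D4:**
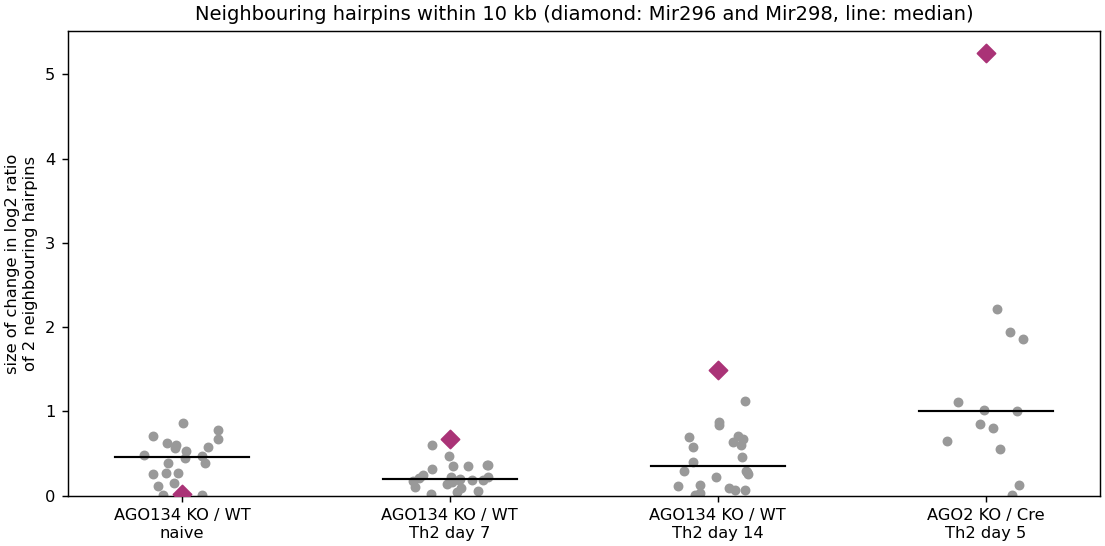
Size of the knockout-against-control change in the log2 ratio of 2 neighbouring hairpins (vertical axis) for each pair within 10 kb in the 4 genotype comparisons, with grey points for other pairs, a horizontal line for the median of all pairs and a diamond for Mir296 and Mir298. The diamond lies at 0.02 in naive cells and above all grey points in the other comparisons.

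Patterns over the 6 groups of the first experiment were compared by the root mean square (RMS) difference of centred log2(CPM + 1) group means, over 477 miRNAs. The pattern most like that of miR-298-5p was miR-33-3p (0.24), followed by miR-335-3p (0.30) and miR-1927 (0.39), while its own neighbour miR-296-3p ranked 34 (0.68). For miR-296-3p the nearest were miR-700-5p (0.10), miR-363-5p (0.11) and miR-324-5p (0.11), and miR-298-5p ranked 160. For miR-296-5p they were miR-1949 (0.33), miR-301a-3p (0.33) and miR-6974-5p (0.39), and miR-296-3p, from the same hairpin, ranked 73. Each arm thus had nearer matches elsewhere, but the best of 477 patterns is likely to beat any 1 given miRNA. The cluster was also chosen for differing hairpins, so no conclusion is drawn from this. miR-298-5p lay 0.68 from miR-296-3p, where the median RMS was 1.32 for miR-298-5p and 0.89 for miR-296-3p. It lay 0.74 from miR-296-5p, whose median was 1.58. Both arms of miR-296 lay 0.96 apart, under the median of miR-296-5p but over that of miR-296-3p. The same miRNAs can be set side by side at day 5 of the second experiment, which the likeness did not use, in controls and in AGO2-deficient cells. miR-296-3p averaged 1553 and 2842 CPM, whereas all 3 of its nearest were lower in AGO2-deficient cells: miR-363-5p at 395 and 176 CPM, miR-700-5p at 57.5 and 12.3 CPM and miR-324-5p at 19.8 and 13.6 CPM. miR-298-5p averaged 1570 and 53.9 CPM, and its 3 nearest were lower there too: miR-33-3p at 45.6 and 25.2 CPM, miR-335-3p at 23.1 and 6.79 CPM and miR-1927 at 75.7 and 6.14 CPM. Most of these levels lie under the 51.4 to 267 CPM that 3 counts equal in these libraries, so the low ones carry little weight. Some patterns of the first experiment also rest on low counts. In naive AGO134-/- cells miR-335-3p, miR-1927 and miR-6974-5p averaged 2.97, 1.68 and 2.78 CPM, where 3 counts equal 11.0 CPM or more.

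The list of imprinted miRNAs held 116 mature names from the Dlk1-Dio3, Mest, Igf2 and H19 loci, and the imprinted Sfmbt2 intron cluster was not on it. Of these names, 52 had a count and 1, miR-127-3p of the Dlk1-Dio3 cluster, passed the count filter in the first experiment. None passed it in the second. Also on the list is miR-335-3p of the Mest locus, named above for its pattern near that of miR-298-5p, which did not pass the filter. The log2 fold changes of miR-127-3p in AGO134-/- against WT cells were -0.06 (SE 0.49) in naive cells, -0.26 (SE 0.42) at day 7 and -1.06 (SE 0.76) at day 14, none of them called, where the medians of all tested miRNAs were -0.05, -0.02 and 0.01. From day 7 to day 14 it was called lower in both genotypes, at -1.30 (SE 0.47) in WT and -2.10 (SE 0.68) in AGO134-/- cells. Of all tested miRNAs, 24.9% and 23.3% were called lower over these steps. The Gnas-locus hairpins summed to as much as 4181 CPM in a library of Cre control cells at day 5.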

How the data were processed

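The authors deposited whole-number counts per mature miRNA entry for each of 36 libraries, per the file headers. Per the submitters' processing notes the build was GRCm38. Aligner, counter and miRNA release: not given in the sources used here. Labels state single-end reads and the series text paired-end reads. Entries named STD (9; 32.0% to 86.7% of a library's counts) name no miRNA and were left out. A name with several entries kept the one with the highest total. No 2 replicates agreed within sampling noise (lowest chi-square per degree of freedom 1.88).

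Each experiment was fitted whole with edgeR 4.0.16 in R 4.3.3 (quasi-likelihood, TMM, filterByExpr at 10 counts, Benjamini-Hochberg). On simulated day 14 data over 382 miRNAs, of which 200 were changed, 79.5% of 2-fold and 93% of 4-fold changes were recovered. Among unchanged miRNAs 1 and 6 were called. The day 14 comparison itself called 75, and with fewer changes the recovery may be lower. Ratios used a pseudocount of 0.5, with exact permutation tests in SciPy 1.17.1 and Clopper-Pearson intervals, and hairpins were folded with RNAfold 2.7.2. Alternatives were DESeq2 1.42.0, other scalings, filters, locus entries, fitted groups, a replicate block and left-out libraries. Whether replicate numbers or letters pair the samples is not stated. Correlations of same-numbered pairs ran from -0.22 to 0.35, and in no comparison did every such pair correlate above 0.1. So few pairs cannot settle the question, and the main fits took the samples as unpaired.

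Members and lists were chosen with earlier results of these data known. Named miRNAs were the members, the 3 nearest in pattern to each member with a mean of at least 10 CPM, called imprinted miRNAs, seed relatives and cell type markers. miR-127-3p, miR-5621-3p and miR-5099 were named after their values were seen.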

Additional observations from a re-analysis of the deposited data

Results flagged for a closer look

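The effect of losing Argonaute 1, 3 and 4 on miR-298-5p is listed for its difference between stages of Th2 culture: the interaction term, day 14 minus day 7, was -0.94 on the log2 scale (SE 0.32) and was among edgeR's calls (adjusted p = 0.0480). With DESeq2 size factors it was -0.96 (adjusted p = 0.0451), but the call ended with library size as the only scaling (-0.80, adjusted p = 0.174) and on the STD scaling (-0.80, adjusted p = 0.480), so it holds under 1 of the 3 alternatives run. All 3 AGO134-/- libraries at day 14 and all 4 at day 7 lay below every WT library of their stage in CPM. With library size alone the median log2 fold change of all tested miRNAs was -0.15 at day 14 and -0.31 at day 7. The cluster was chosen for differences of this kind, so the term is a description. No library stood apart from the rest of its group in any of the 23 sets of 4 values looked at.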

How the results depend on the processing

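Of 661 recomputed values over 55 results, 610 were labelled as kept. For fold changes, stage terms and arm ratios this meant the same direction and side of the threshold. For numbers of called miRNAs it meant a change within a factor of 1.5. For the hairpin ratio it meant a move of less than the pooled SD, whatever the sign, and all 82 were kept. Leaving out 1 library could not move the ratio that far, so those values do not show that it is stable. In naive cells it turned from -0.02 to 0.23 without AGO134-/- replicate 4. miR-298-5p was called at day 7 in 17 of 17 alternatives, at day 14 in 15 of 15 and for AGO2 at day 5 in 16 of 16. In naive AGO134-/- cells, miR-296-3p and miR-298-5p became called with library size only (-0.80 and -0.94), STD scaling (-1.26 and -1.40) and the 2 groups alone (-0.56 and -0.70), and miR-296-3p with all locus entries (-0.59). Of all miRNAs, 80 were called lower there with library size only and 204 with STD scaling. STD scaling made miR-296-3p (-0.82) and miR-296-5p (-0.79) called at day 7, and ended the call of miR-298-5p from day 7 to day 14 in AGO134-/- cells (-0.80). The AGO2 day 5 minus naive term of miR-298-5p became called with DESeq2 size factors (-3.92) and STD scaling (-5.16). For AGO2 at day 5, miR-296-3p reversed with STD scaling (-0.59) and lost its call with no filter (0.90); leaving out single libraries gave 0.72 to 1.36. The day 14 minus day 7 term of miR-298-5p lost its call with library size only and STD scaling (-0.80 in each); that of miR-296-3p turned to 0.10 and 0.12. The naive value of miR-296-5p turned to -0.10 (library size) and -0.51 (STD), and ran from -0.14 to 0.43 leaving out libraries; at day 14 that range was -0.62 to 0.0436. The WT day 7 to day 14 value of miR-298-5p turned to -0.0024 with STD scaling and ran from -0.0065 to 0.28 leaving out libraries, and its day 7 minus naive term turned to 0.0180 with STD scaling. The miR-296 arm ratio ran from -0.0474 to 0.35 at day 7 and -0.53 to 0.50 at day 14. The causes were not tested. A replicate block, with numbers that may or may not pair the samples, made both naive values called (-0.56 and -0.71) and turned miR-296-5p at day 14 to 0.0249. It gave the hairpin ratio at day 14 as 1.60 and at day 7 as 0.67. No block was possible for AGO2, whose groups share no letters. Counts of called miRNAs moved from 70 to 204 (naive, STD), 37 (without WT replicate 1) and 46 (without AGO134-/- replicate 4); from 55 to 129 (day 7, STD), 35 (no filter), 34, 36 and 36 (without WT replicates 2, 3 and 4) and 24 (without AGO134-/- replicate 4); from 75 to 12 (day 14, block); from 171 to 113 (AGO134-/- day 7 to day 14, STD or block); and from 44 to 69 (AGO2, STD), 76 (no filter), 71 (all locus entries), 79 (2 groups alone) and 70 (without naive Cre libraries B and C). The median of all miRNAs moved from -0.05, -0.02 and 0.01 to -0.33, -0.31 and -0.15 with library size only and -0.77, -0.63 and -0.44 with STD scaling in the AGO134-/- comparisons. Depth limits the naive second experiment, with 4 and 19 cluster reads per group.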
